A study of Homo sapiens with 6 samples.

Results

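YAP1 and WWTR1 (the gene of TAZ) are the transcriptional coactivators controlled by the Hippo pathway, and TEAD1 is a DNA-binding factor through which they act. These 3 genes were examined together with the target genes CCN1, CCN2 and ANKRD1 and the inhibitors AMOTL1, AMOTL2, LATS1 and LATS2. They were taken by symbol from the gene-level count tables, which gave 10 of 28265 genes. The cells were LN229, a human glioblastoma line grown in DMEM with serum, and all 6 libraries came from total RNA of that line. In 3 control libraries the genotype label is WT, and in the other 3 it is TRIM25 knockdown, which the series design describes as shTRIM25 derivatives of LN229. The labels do not say whether the controls carried a non-targeting hairpin, how many hairpins were used, or whether the derivatives are clones or pools. Nor is it stated that replicates were grown as separate cultures, and the p-values below therefore cover only the spread among these 6 libraries, which may be technical. In bulk RNA a smaller share of expressing cells and less RNA per cell cannot be told apart.

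The libraries labelled knockdown did not show less TRIM25 mRNA. TRIM25 stood at 35.3, 35.8 and 35.6 CPM (counts relative to the TMM-scaled library size) in the controls and at 80.3, 79.98 and 88.5 CPM in the libraries labelled knockdown, a log2 fold change of 1.22 ± 0.07 (SE; edgeR quasi-likelihood test, adjusted p = 3.23e-09). The targeted mRNA thus went against the label, and each direction below is that of the libraries labelled knockdown relative to the controls, not that of a loss of TRIM25 mRNA.

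In the Hippo pathway the kinases STK3 and STK4 activate the kinases LATS1 and LATS2, which phosphorylate YAP and TAZ and so keep them in the cytoplasm or lead to their degradation. YAP and TAZ that reach the nucleus bind TEAD factors and switch on genes such as CCN1 and CCN2, which encode secreted matricellular proteins, as well as AMOTL2 and LATS2, which feed back on the pathway. Most of this control acts on the proteins and their location, which mRNA counts do not measure. In gliomas YAP, TAZ and TEAD factors have been linked to growth and to mesenchymal states.

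The matricellular targets CCN1 and CCN2 and the inhibitors AMOTL1 and LATS1 were higher in the libraries labelled knockdown, and YAP1 was lower. CCN1 rose 1.87-fold, AMOTL1 1.45-fold, CCN2 1.26-fold and LATS1 1.24-fold, while YAP1 fell 1.21-fold. WWTR1, TEAD1, AMOTL2 and LATS2 did not pass the test. ANKRD1 was close to undetected. Of the 10 genes 9 passed the low-count filter, and 5 of these 9 had a Benjamini-Hochberg adjusted p under 0.05 (the threshold for a call), beside 23.3% of the 14315 genes tested. By direction, 4 were higher and 1 was lower, beside 12.2% and 11.0% of tested genes. In the same 5 genes the CPM of the groups did not overlap, beside 37.3% of tested genes. The median log2 fold change of the 9 genes was 0.14, and that of all tested genes was -0.0038. With so few genes these shares describe the group and were not tested.

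**Figure D1:**
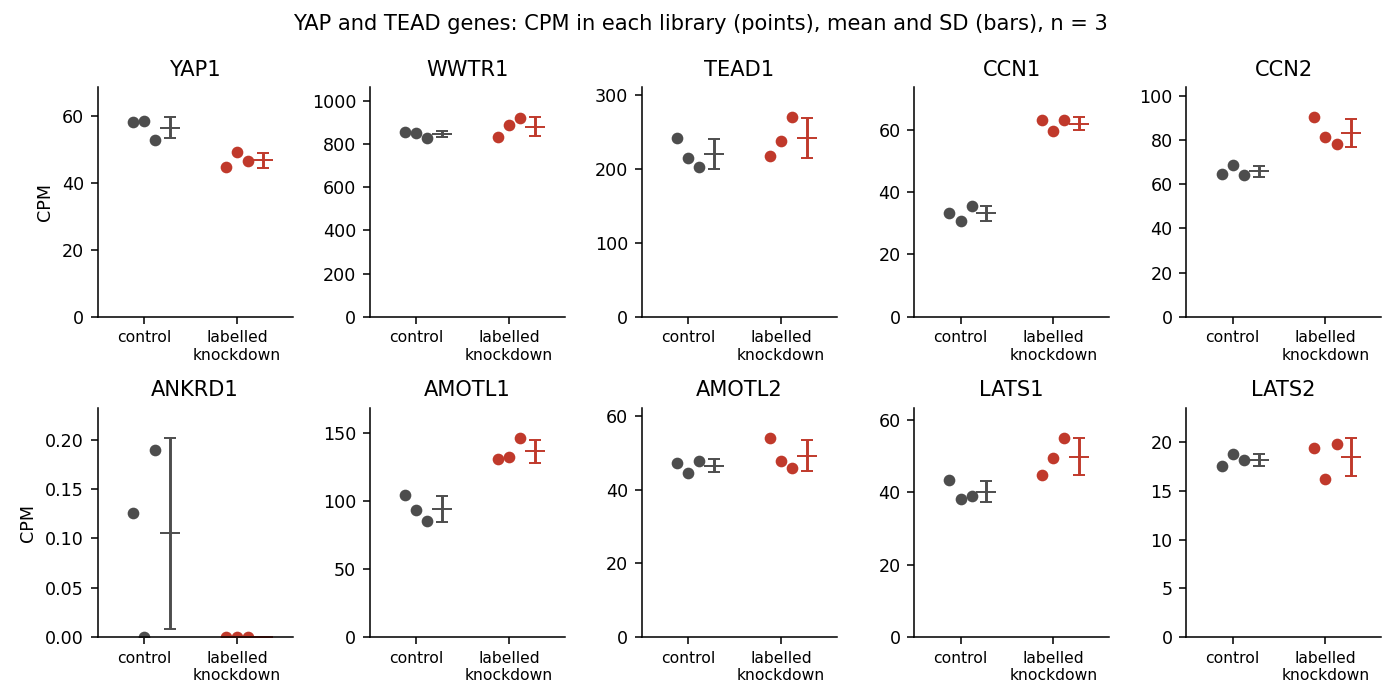
CPM of each of the 10 genes in every library, on vertical axes that start at 0 and have their own scale in each panel; grey points are controls, red points are libraries labelled knockdown, and the bars beside them give mean and SD (n = 3). The groups are apart for CCN1, CCN2, AMOTL1, LATS1 and YAP1, and ANKRD1 stays below 0.2 CPM.

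Depth and composition of the libraries bear on these values. Controls held 13763400 to 15868470 counts and the libraries labelled knockdown 11349865 to 16404725. Long transcripts stood relatively high in control replicate 1 (Spearman's rho between gene length and a gene's deviation from its group mean, 0.41) and in labelled knockdown replicate 3 (0.38), and low in control replicate 3 (-0.36) and labelled knockdown replicate 1 (-0.38). With GC content in place of length, rho was 0.57 in labelled knockdown replicate 1 and -0.51 in labelled knockdown replicate 3. It was 0.31 in control replicate 3 and between -0.21 and -0.13 in the other libraries. Across tested genes the log2 fold change itself had a rho of 0.30 with length and -0.26 with GC content, and with length -0.0097 once splines of length and GC were removed from each library as offsets. This last value follows from how the offsets are made. They also take out any part of a group difference that goes with length or GC content. The rho values are descriptions across genes, which are not independent. Of 10 glial and glioblastoma markers, NES, VIM, CD44, S100B and SOX2 were abundant, GFAP had at most 8 counts in a library and ALDH1L1 had 0 in all. SOX2 (log2 fold change -0.66), OLIG2 (-0.68) and S100B (-0.33) fell and NES rose (0.27). The summed marker level was 5213 to 5530 CPM in the controls (rounded values of the lowest and highest library) and 4784 to 5135 CPM in the libraries labelled knockdown. Of 11 markers of blood, endothelial and epithelial cells 7 stayed below 1 CPM in every library. The sum of these 11, mostly KRT8 and KRT18, was 101.2 to 114.8 CPM in the controls and 106.4 to 124.7 CPM in the libraries labelled knockdown. The part of these marker differences in the results on the 10 genes was not tested.

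WWTR1 was by far the more abundant coactivator mRNA. In the authors' TPM, which divides by gene length and so allows genes to be compared, WWTR1 stood at 429, 416 and 399.9 TPM in the controls and at 411, 453 and 479.7 TPM in the libraries labelled knockdown. YAP1 stood at 28.9, 28.2 and 25.2 TPM in the controls and at 21.7, 24.8 and 24.0 TPM in the libraries labelled knockdown. The WWTR1 level was thus between 14.8 and 19.97 times that of YAP1 within a library, and only 321 of the tested genes had a higher mean TPM than WWTR1.

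After WWTR1 came CCN2 at a mean of 90.0 TPM over the 6 libraries, TEAD1 at 69.2, CCN1 at 59.3 and AMOTL1 at 36.4 TPM. AMOTL2 followed at 26.0 TPM, YAP1 at 25.5, LATS1 at 15.7 and LATS2 at 9.30 TPM, and ANKRD1 was last at 0.074 TPM. Some neighbours in this order cannot be ranked. TEAD1 was above CCN1 in 4 of 6 libraries, AMOTL2 was above YAP1 in 3 of 6, and the ranges of CCN2 and TEAD1 overlapped across libraries although CCN2 was above TEAD1 in 6 of 6. CCN1 was above AMOTL1 and AMOTL1 above AMOTL2 in 6 of 6 libraries, again with ranges that overlapped across libraries.

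Of the coactivators, YAP1 fell. YAP1 stood at 58.1, 58.5 and 52.9 CPM in the controls and at 44.6, 49.1 and 46.7 CPM in the libraries labelled knockdown. All 3 controls were above all 3 libraries labelled knockdown, with the smallest gap between control replicate 3 and labelled knockdown replicate 2. The log2 fold change was -0.27 ± 0.07 (SE; 95% interval -0.42 to -0.12; edgeR adjusted p = 0.0110). Leaving out control replicate 2 ended the call (adjusted p = 0.0740), and with length and GC offsets the value was -0.34 (adjusted p = 3.31e-05).

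WWTR1 did not change beyond its spread. It stood at 855, 854 and 829.6 CPM in the controls and at 836, 889 and 922 CPM in the libraries labelled knockdown. Labelled knockdown replicate 1 lay among the controls and the other 2 above them. Its difference on the log2 scale was 0.06 (95% interval -0.05 to 0.17; edgeR adjusted p = 0.415). WWTR1 shares 795 bp of exon with the antisense gene WWTR1-AS1 in GENCODE v29, and whether the counting used strand is not given in the sources used here. WWTR1-AS1 had 34, 27 and 35 counts in the controls and 20, 16 and 16 in the libraries labelled knockdown, against at least 10031 for WWTR1. YAP1, AMOTL1, LATS1 and CCN2 likewise share exon stretches of 628, 496, 408 and 195 bp with antisense genes of that annotation, so reads from the other strand could be part of their counts.

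TEAD1, the most abundant of the 4 TEAD factor genes, stood at 242, 215 and 203 CPM in the controls and at 217, 238 and 269.7 CPM in the libraries labelled knockdown. The groups overlapped, with control replicate 1 above 2 of the 3 libraries labelled knockdown. The log2 fold change was 0.14 (95% interval -0.03 to 0.30; edgeR adjusted p = 0.213). TEAD1 is a long gene model of 9417 bp, and its values were highest in the same libraries in which long transcripts stood high. Without labelled knockdown replicate 1 the value was 0.21 and passed (adjusted p = 0.0113), and with length and GC offsets it was 0.01 (adjusted p = 0.865). The offsets also take out any group difference that goes with length, so the part of length in the TEAD1 values was not tested.

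CCN1 encodes an integrin-binding matricellular protein formerly called CYR61, and it showed the largest change of the 9 tested genes. It stood at 33.4, 30.8 and 35.6 CPM in the controls and at 63.2, 59.7 and 63.4 CPM in the libraries labelled knockdown. The libraries of each group lay close together and the groups were far apart. CCN1 averaged 33.3 ± 2.44 CPM in the controls and 62.1 ± 2.10 CPM in the other group (SD, n = 3 each), a log2 fold change of 0.90 ± 0.07 (SE; 95% interval 0.75 to 1.05; edgeR adjusted p = 2.72e-07). Only 78 of the 14315 tested genes had a larger log2 fold change than CCN1. It kept its call without each library in turn (log2 fold change 0.85 to 0.95) and was 0.99 with length and GC offsets.

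CCN2, formerly called connective tissue growth factor, is the target most often used as a readout of YAP and TEAD. It stood at 64.8, 68.6 and 64.2 CPM in the controls and at 90.4, 81.2 and 78.2 CPM in the libraries labelled knockdown. The groups did not overlap, and labelled knockdown replicate 1 was the highest of the 6. CCN2 averaged 65.9 ± 2.40 CPM and 83.3 ± 6.33 CPM (SD, n = 3 each), with a log2 fold change of 0.34 ± 0.07 (SE; 95% interval 0.19 to 0.48; edgeR adjusted p = 0.00223). The call held without each library in turn (adjusted p at most 0.0154).

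ANKRD1, a muscle-enriched ankyrin repeat gene and a common YAP target in other cells, had 2, 0 and 3 counts in the controls and 0 in each of the 3 libraries labelled knockdown. It did not pass the low-count filter, and no fold change is given. A count of 0 allows up to 3 counts, which is 0.249, 0.264 and 0.183 CPM in labelled knockdown replicates 1, 2 and 3. These limits cover counting error only. At this depth no difference between the groups was detectable.

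Promoter windows of these genes were searched for a short sequence that TEAD factors bind. Sequence outside the windows was not searched, so a window without a match does not mean that a gene lacks such sites. The window runs from 250 bases before to 50 after an annotated start site (RefSeq, GRCh38.p14; the counts themselves were made on hg19), and 8 of the 10 genes had at least 1 such window, 11 windows in all. CCN1 and TEAD1 had none. The motif GGAATG, or its reverse complement CATTCC, was searched on both strands, which is a match of letters and not evidence of binding. CCN2, ANKRD1, YAP1 and AMOTL1 are printed because they pair a called target with 3 matches, a target at almost no counts with 2, a coactivator that fell with 1, and a gene that rose with none in its window. Capitals mark the matches, and each sequence is given 5′ to 3′ on the gene's own strand.
CCN2 (chr6:131951323-131951622, minus strand): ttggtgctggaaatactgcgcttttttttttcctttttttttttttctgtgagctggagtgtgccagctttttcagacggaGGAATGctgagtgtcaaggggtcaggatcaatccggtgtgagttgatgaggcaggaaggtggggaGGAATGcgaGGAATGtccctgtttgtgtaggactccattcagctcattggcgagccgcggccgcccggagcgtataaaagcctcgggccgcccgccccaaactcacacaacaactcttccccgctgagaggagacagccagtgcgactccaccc
ANKRD1 (chr10:90921038-90921337, minus strand): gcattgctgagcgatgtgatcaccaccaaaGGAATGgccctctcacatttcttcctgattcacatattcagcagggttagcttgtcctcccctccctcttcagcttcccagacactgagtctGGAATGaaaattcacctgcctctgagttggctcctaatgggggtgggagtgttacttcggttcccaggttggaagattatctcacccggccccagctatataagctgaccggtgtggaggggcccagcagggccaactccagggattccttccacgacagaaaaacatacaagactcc
YAP1 (chr11:102110197-102110496, plus strand): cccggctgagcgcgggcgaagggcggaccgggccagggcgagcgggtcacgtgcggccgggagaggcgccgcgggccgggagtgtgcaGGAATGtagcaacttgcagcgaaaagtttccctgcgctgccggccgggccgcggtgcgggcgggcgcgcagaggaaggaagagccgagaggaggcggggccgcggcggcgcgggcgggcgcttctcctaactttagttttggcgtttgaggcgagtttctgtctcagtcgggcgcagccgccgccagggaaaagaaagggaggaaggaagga
AMOTL1 (chr11:94768106-94768405, plus strand): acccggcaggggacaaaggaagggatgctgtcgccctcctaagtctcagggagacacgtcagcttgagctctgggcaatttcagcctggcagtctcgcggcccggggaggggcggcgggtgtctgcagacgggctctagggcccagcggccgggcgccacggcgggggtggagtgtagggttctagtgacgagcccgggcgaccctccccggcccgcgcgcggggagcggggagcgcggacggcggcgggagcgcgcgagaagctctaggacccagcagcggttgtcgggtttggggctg

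In the CCN2 window the 3 matches begin at -169, -104 and -95 relative to the first transcribed base, all in the same orientation. In ANKRD1 they begin at -220 and -128 and in YAP1 at -162. AMOTL2 had 1 match, at -69 and on the other strand, in 1 of its 2 windows, and LATS2 had 1 at 9 bases past the start. No match was found in the windows of WWTR1, LATS1 and AMOTL1. Of all 35116 promoter windows supplied, 14.0% held at least 1 match, and 0.128% held 3 or more, as CCN2 does. Among tested genes with a window, 16.7% of those called higher, 16.7% of those called lower and 14.7% of those not called held a match. Genes called in either direction therefore held the motif at the same share, and these shares were not tested.

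AMOTL1 belongs to the angiomotin family, whose members bind YAP and hold it at cell junctions or in the cytoplasm. It stood at 104, 93.1 and 85.6 CPM in the controls and at 131, 132 and 146 CPM in the libraries labelled knockdown. All 3 libraries labelled knockdown were above all controls. For AMOTL1 the log2 fold change was 0.54 ± 0.07 (SE; 95% interval 0.38 to 0.69; edgeR adjusted p = 6.54e-05), and it stayed called without each library in turn (adjusted p at most 0.00147). AMOTL1 is 8980 bp long, and with length and GC offsets the value was 0.45 (adjusted p = 3.31e-08).

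AMOTL2, a close relative that is also a YAP target, stood at 47.2, 44.5 and 47.8 CPM in the controls and at 54.1, 47.9 and 45.8 CPM in the libraries labelled knockdown. The groups overlapped, and labelled knockdown replicate 1 was the highest library. For AMOTL2 the log2 fold change was 0.08 (95% interval -0.08 to 0.24; edgeR adjusted p = 0.479). In GENCODE v29 the pseudogene RPL39P5 overlaps 187 bp of AMOTL2 exon in the same orientation.

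LATS1, the kinase that phosphorylates YAP and TAZ, stood at 43.4, 38.2 and 38.8 CPM in the controls and at 44.7, 49.5 and 55.0 CPM in the libraries labelled knockdown. The groups were separated by a narrow gap, from 43.4 CPM in control replicate 1 to 44.7 CPM in labelled knockdown replicate 1. The log2 fold change was 0.31 ± 0.08 (SE; 95% interval 0.14 to 0.49; edgeR adjusted p = 0.0121). LATS1 missed the threshold when control replicate 2 was left out (adjusted p = 0.0784), as it did on leaving out control replicate 3 (0.0567) or labelled knockdown replicate 3 (0.0618). With length and GC offsets the value of this 8090 bp gene was 0.19, with an adjusted p of 0.0127.

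LATS2, the paralogous kinase and a YAP target itself, stood at 17.5, 18.8 and 18.2 CPM in the controls and at 19.3, 16.2 and 19.8 CPM in the libraries labelled knockdown. The libraries labelled knockdown lay on either side of the controls. For LATS2 the log2 fold change was 0.03 (95% interval -0.17 to 0.23; edgeR adjusted p = 0.848).

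**Figure D2:**
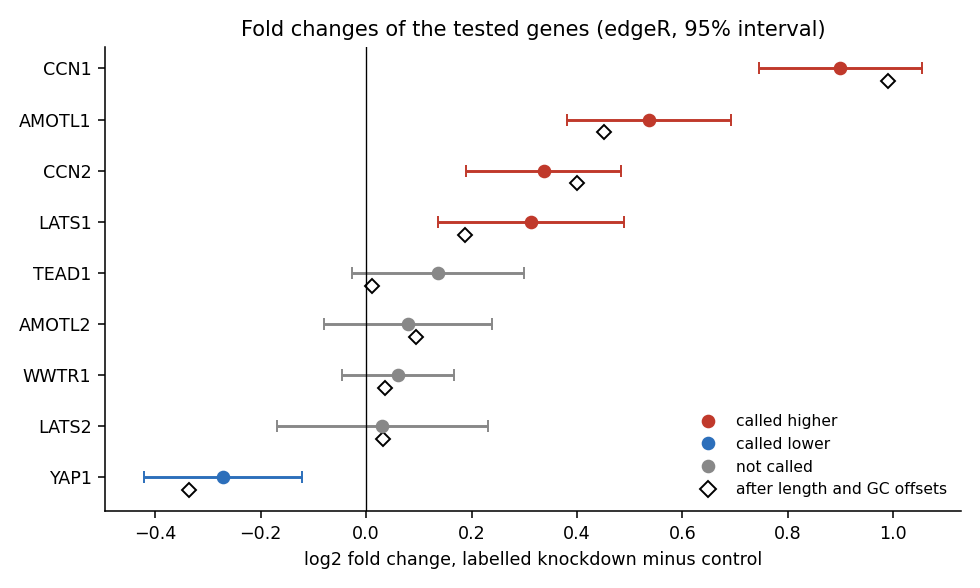
Log2 fold change (labelled knockdown minus control, horizontal axis) of the 9 tested genes with 95% intervals from edgeR, and, as open diamonds, the value with length and GC offsets. CCN1 lies farthest to the right at 0.90 and YAP1 is alone on the left at -0.27, and the diamonds of TEAD1 (0.01) and LATS1 (0.19) lie to the left of their filled points.

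The makeup of each family was compared in TPM. YAP1 made up 6.30%, 6.35% and 5.93% of the summed YAP1 and WWTR1 level in the controls and 5.02%, 5.18% and 4.77% in the libraries labelled knockdown, without overlap. The summed level of the coactivators was 442.4 ± 16.6 TPM (SD, n = 3) in the controls and 471.7 ± 35.8 TPM (SD, n = 3) in the libraries labelled knockdown. AMOTL1 made up 39.0% ± 1.70 (SD, n = 3) of the summed AMOT, AMOTL1 and AMOTL2 level in the controls and 46.4% ± 1.66 (SD, n = 3) in the libraries labelled knockdown, and the sum went from 74.6 ± 7.07 to 94.1 ± 4.77 TPM.

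CCN1 made up 34.6%, 31.5% and 36.3% of the summed CCN1 and CCN2 level in the controls and 41.8%, 43.0% and 45.4% in the libraries labelled knockdown. CCN2 thus remained the more abundant of the pair in every library. LATS1 made up 60.2% ± 2.43 of the LATS sum in the controls and 64.9% ± 3.24 in the libraries labelled knockdown, and TEAD1 46.7% ± 2.13 and 49.9% ± 4.04 of the sum over TEAD1 to TEAD4 (SD, n = 3 each). In these last families the groups overlapped. Over the 5 shares the two-sided exact permutation p was 0.10 for YAP1, AMOTL1 and CCN1, which is the smallest that 3 against 3 libraries allow, 0.20 for LATS1 and 0.30 for TEAD1 (adjusted over the 5: 0.167, 0.25 and 0.30). The shares of YAP1, AMOTL1 and CCN1 rest on the same counts as their fold changes and are no separate evidence.

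**Figure D3:**
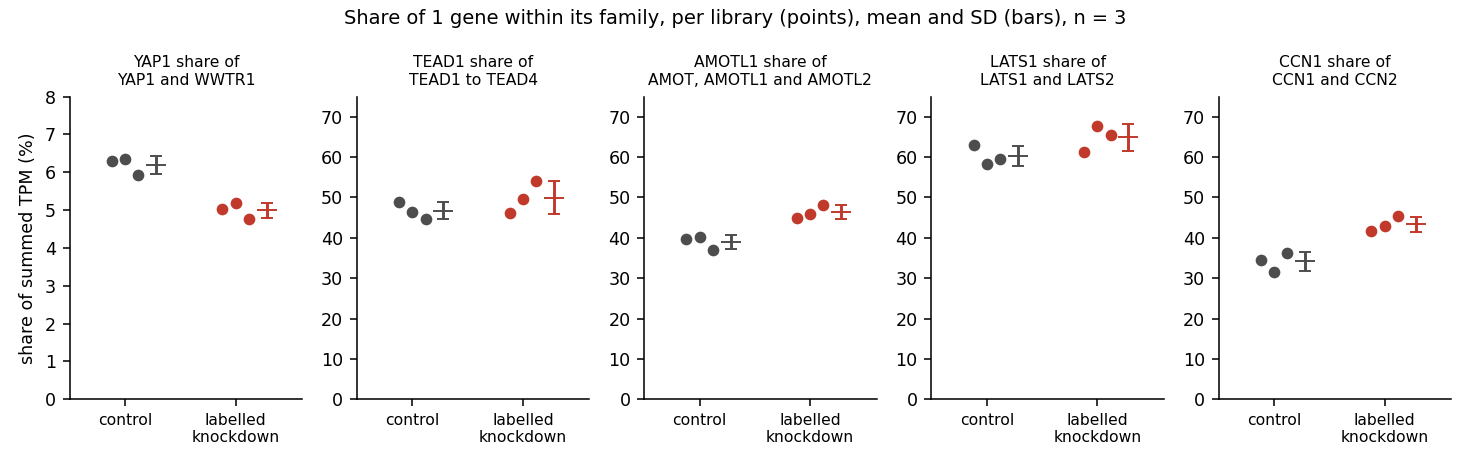
Share of 1 gene in the summed TPM of its family (vertical axis, percent, starting at 0, with a scale of its own for YAP1) in each control (grey) and labelled knockdown library (red), with mean and SD (n = 3). The groups are apart for YAP1, AMOTL1 and CCN1 and overlap for TEAD1 and LATS1.

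Other genes widely used as YAP and TAZ targets did not share 1 direction. Of 21 such genes 19 were tested, of which 3 rose, 5 fell and 11 did not pass. Their median log2 fold change was -0.06 (-0.05 with length and GC offsets). The share called was 42.1%, beside 23.3% of all tested genes, and this difference was not tested. PTPN14, a phosphatase that binds and restrains YAP and is also a target, rose 1.65-fold, from 99.2, 89.4 and 82.2 CPM to 133, 154 and 159 CPM (edgeR adjusted p = 5.60e-06 for a log2 fold change of 0.72 ± 0.08, SE). The groups of PTPN14 did not overlap, and it stayed called without each library in turn. PTPN14 is 13358 bp long, and its value with length and GC offsets was 0.60. In GENCODE v29 it shares 1213 bp of exon with the pseudogene KRT18P12 on the opposite strand.

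TGFB2, which encodes a TGF-beta ligand, fell 1.72-fold, from 18.9, 15.6 and 16.1 CPM to 9.33, 8.13 and 11.5 CPM (edgeR adjusted p = 0.000229 for a log2 fold change of -0.79 ± 0.12, SE). In GENCODE v29 the noncoding gene TGFB2-OT1 shares 1371 bp of TGFB2 exon on the same strand. The matrix protein gene CCDC80 fell by 0.41 and the IGF binding protein gene IGFBP3 by 0.34 on the log2 scale. CCDC80 went from 34.6 ± 1.66 to 26.2 ± 1.14 CPM and IGFBP3 from 136.7 ± 1.06 to 108.2 ± 4.06 CPM (SD, n = 3 each). TGFB2, CCDC80 and IGFBP3 were lower in all 3 libraries labelled knockdown than in any control.

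Other called genes of this list, named after their values were seen, were MYOF (0.31) and ASAP1 (0.22), which rose, and RBMS3 (-0.31), which fell. For MYOF and ASAP1 the CPM of the groups overlapped. MYOF lost its call without control replicates 2 or 3 or labelled knockdown replicate 2 (adjusted p from 0.0580 to 0.0700). ASAP1 lost it without those libraries or labelled knockdown replicate 3 (0.0905 to 0.157), and with offsets stood at 0.13.

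Of 25 further Hippo kinases, adaptors and membrane activators 23 were tested. PTPN14 (on the target list too) and TAOK1 rose and 21 did not pass. The median log2 fold change of this list was 0.08 (-0.03 with length and GC offsets). The share called was 8.70%, beside 23.3% of all tested genes, and this difference was not tested. TAOK1, a kinase that activates STK3 and STK4 and was named after its value was seen, overlapped between the groups, at 118, 98.4 and 88.8 CPM and 110, 131 and 157 CPM. Its log2 fold change was 0.38 ± 0.11 (SE; edgeR adjusted p = 0.0166). TAOK1 is 12081 bp long, and its value fell to 0.24 with length and GC offsets. TAOK1 missed the threshold in 4 of the 6 fits that leave out a library, those of replicates 2 and 3 of either group (0.0520 to 0.0883), and in DESeq2 (0.153). With offsets 2 genes of this list rose and 3 fell, in a fit that called 15.6% of all tested genes higher and 16.1% lower.

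Among 16 LIM proteins and STRIPAK phosphatase subunits, which restrain the Hippo kinases, 15 were tested. Of these 4 rose, 2 fell and 9 did not pass (median 0.04, and -0.015 with length and GC offsets). In all 40.0% were called, beside 23.3% of all tested genes, and this difference was not tested. Among those that rose were the STRIPAK genes CTTNBP2NL, STRN and SIKE1, by 0.41, 0.35 and 0.23 on the log2 scale. The LIM protein gene LIMD1 and PPP2R1A, the scaffold subunit of the phosphatase, fell by 0.30 and 0.28. CTTNBP2NL went from 35.2 ± 5.54 to 46.8 ± 3.23 CPM and PPP2R1A from 193.7 ± 11.9 to 160.1 ± 9.15 CPM (SD, n = 3 each), so subunits of the same complex moved in opposite directions. LIMD1 lost its call without labelled knockdown replicate 2 (adjusted p = 0.0739), and SIKE1, named after its value was seen, in every fit without a library except that without labelled knockdown replicate 1 (0.0543 to 0.116). With offsets STRN stood at 0.15, and 4 genes of the list rose and 4 fell (53.3% called, beside 31.8% of all tested genes).

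Of 8 other TEAD factors and cofactors 6 were tested, of which 1 was called (16.7%, beside 23.3% of all tested genes). TEAD2 fell from 27.9, 29.8 and 30.0 CPM to 24.4, 24.9 and 22.8 CPM, a log2 fold change of -0.29 ± 0.08 (SE; edgeR adjusted p = 0.0156), and 5 did not pass. The TEAD2 call was lost without control replicates 2 or 3 or labelled knockdown replicate 3 (adjusted p from 0.0653 to 0.0750). TEAD4 had a log2 fold change of 0.23 (adjusted p = 0.0911) and TEAD3 one of -0.04 (0.773). With length and GC offsets 2 genes of this list rose, 1 of them TEAD4 (0.36, adjusted p = 0.00362), and 1 fell. The TEAD2 value was then -0.19.

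CCN1, CCN2 and ANKRD1 are also known to respond to SRF, the serum response factor, and its MRTF cofactors. Of 17 genes of that axis 15 were tested, of which TPM1, FLNA and MRTFB rose, ACTB and TPM2 fell and 10 did not pass. The median was 0.05 (0.10 with length and GC offsets). In all 33.3% were called, beside 23.3% of all tested genes, and this difference was not tested. The tropomyosin gene TPM1 went from 467.5 ± 11.2 CPM (SD, n = 3) to 576.8 ± 5.92 CPM (SD, n = 3), a rise of 0.30 on the log2 scale (edgeR adjusted p = 0.000322), and FLNA, which encodes filamin A, rose by 0.22 on the log2 scale. TPM2 fell by 0.25 and the actin gene ACTB by 0.18. SRF itself had a log2 fold change of 0.15 (adjusted p = 0.189). For MRTFB the CPM of the groups overlapped. ACTB, MRTFB and TPM2 depended on the setting. ACTB lost its call without control replicates 2 or 3 or labelled knockdown replicate 2 (adjusted p from 0.0589 to 0.0730) and stood at -0.06 with length and GC offsets (0.198). MRTFB, named after its value was seen, lost it without the same libraries or labelled knockdown replicate 3 (0.131 to 0.180) and stood at 0.10 with offsets (0.144). TPM2 lost it without those 4 libraries (0.0742 to 0.113), and its value with offsets was -0.14. With offsets 6 genes of the axis rose and 2 fell (53.3% called, beside 31.8% of all tested genes).

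Of 6 paralogs of the targets 3 were tested, of which 1 fell and 2 did not pass (33.3% called, beside 23.3% of all tested genes). CCN5, a family member that lacks the C-terminal domain of the others, fell from 5.43 ± 0.388 to 3.36 ± 0.710 CPM (SD, n = 3 each), a log2 fold change of -0.71 ± 0.17 (SE; edgeR adjusted p = 0.00668). CCN3 stood at 70.5, 67.5 and 69.0 CPM in the controls and 77.0, 76.2 and 72.9 CPM in the libraries labelled knockdown, with a log2 fold change of 0.13 (adjusted p = 0.161), and passed with length and GC offsets (0.19, adjusted p = 0.00274). ANKRD23, whose exons overlap ANKRD39 on the same strand in GENCODE v29, had a log2 fold change of -0.28 (adjusted p = 0.339).

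**Figure D4:**
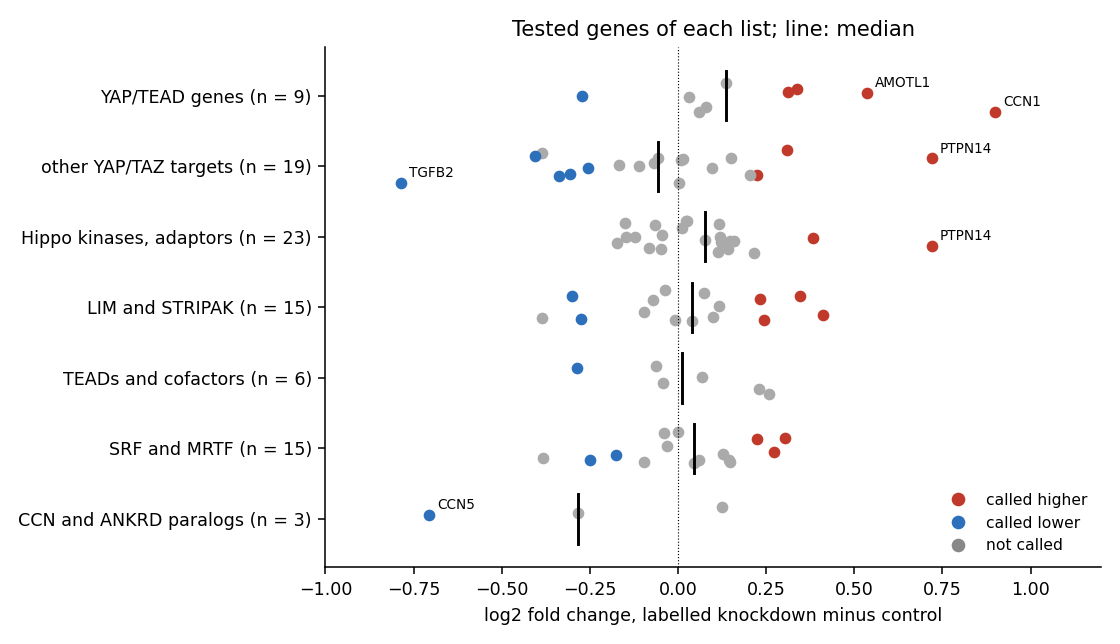
Log2 fold change (horizontal axis, labelled knockdown minus control) of each tested gene, by list; red points were called higher, blue points called lower and grey points not called, vertical scatter within a list is arbitrary, and black lines are medians. The examined genes (9 tested) have a median of 0.14, which is the value of TEAD1 (0.01 with length and GC offsets, where the median is 0.09), and the other YAP and TAZ targets lie on both sides of 0 from TGFB2 at -0.79 to PTPN14 at 0.72.

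Across the 6 lists together, 80 genes were tested, of which 11 rose and 11 fell, 27.5% called in all beside 23.3% of all tested genes. With length and GC offsets 18 rose and 17 fell, 43.8% called in all beside 31.8% of all tested genes. Most of these 80 genes are not YAP and TAZ targets. On the list of other targets alone, 3 of 19 tested genes rose and 5 fell. The targets among the examined genes were not uniform either. CCN1 and CCN2 were higher, AMOTL2 and LATS2 did not pass the test, and ANKRD1 was close to undetected.

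The genes whose levels followed CCN2 most closely over the 6 libraries, of the 11843 genes whose mean log2 CPM was 2 or more, were TCTN1 (Pearson's r = 0.997), RBM19 (0.995) and BEST1 (0.994). For YAP1 they were SP100 (0.994), ASCC1 (0.993) and CCNL1 (0.987). Both CCN2 and YAP1 differ by group, and with 6 points among so many genes values this high are a description only. Of these 6 genes 3 were called, beside 23.3% of all tested genes. They were RBM19 (log2 fold change 0.29, edgeR adjusted p = 0.00929), BEST1 (0.30, 0.0148) and ASCC1 (-0.29, 0.0138). TCTN1 (0.14), SP100 (-0.13) and CCNL1 (-0.05) were not called. All 6 were picked for following CCN2 or YAP1, which themselves differ by group, so these calls are no separate evidence.

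**Figure D5:**
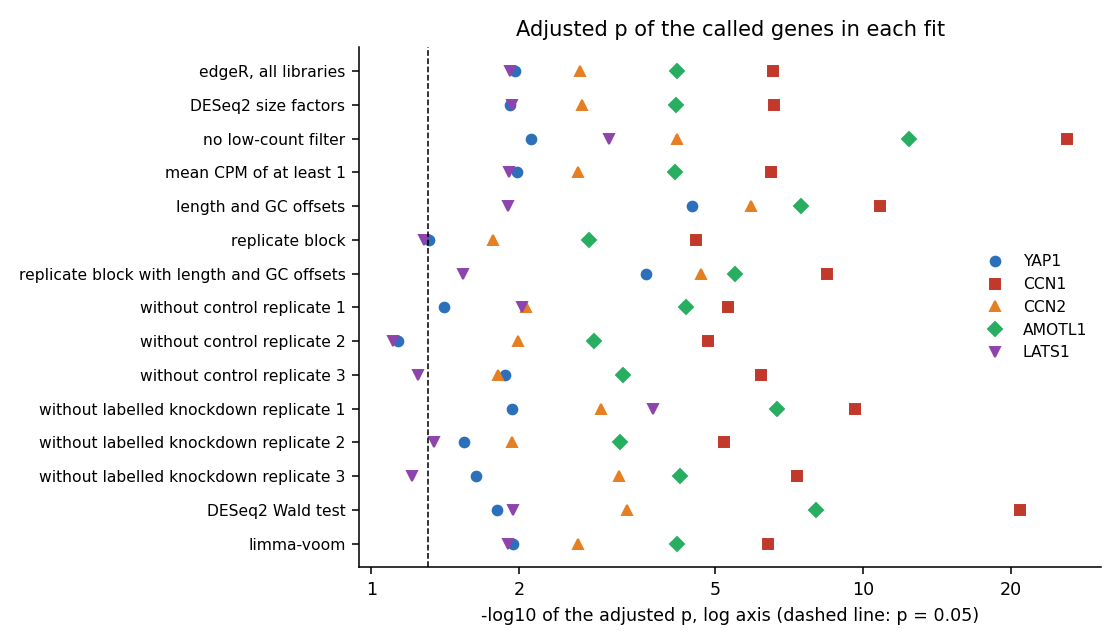
Adjusted p of the 5 called genes, as -log10 on a log axis, in the edgeR fit of all libraries and in each alternative fit (rows); points left of the dashed line miss the threshold of 0.05. CCN1, AMOTL1 and CCN2 stay to its right in all rows, YAP1 crosses it without control replicate 2, and LATS1 crosses it in 4 rows.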

How the data were processed

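Gene-level RNA-seq tables of 6 LN229 libraries (3 control, 3 labelled TRIM25 knockdown) were used, grouped by the genotype label. Per the labels' protocols, a kit that marks strand was used on total RNA. HISAT2, Trim Galore, FastQC, MultiQC and hg19 appear in the submitters' processing notes. What program and annotation produced the counts, and whether it used strand, is not given in the sources used here. The authors' deposited counts are whole reads per gene symbol and were tested as they are. The deposited FPKM served only to recover gene lengths (whole numbers within 0.001 bp for all 21754 genes with a count), and the authors' TPM only to compare genes. No library was a copy of another: replicates gave a chi-square of 1.95 to 8.54 times its degrees of freedom.

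The counts were fitted in R 4.3.3 with edgeR 4.0.16 (filterByExpr, TMM, glmQLFit, glmQLFTest, group as the only term, 14315 genes) and adjusted over all genes by Benjamini-Hochberg. Standard errors are the log2 fold change over the root of F. Alternatives used limma 3.58.1, DESeq2 1.42.0, other filters, each library left out, a replicate block, and offsets from splines (4 degrees of freedom each) of log length and GC content (GENCODE v29 transcripts, 97.0% of tested genes matched, the median for the rest). In simulated data for this comparison (14194 genes in the fit) 91 of 100 genes changed 1.5-fold, 96 of 100 changed 2-fold and 12 of 13994 unchanged genes were called. The simulated counts were independent draws without the length and GC trends of the real libraries, and far fewer genes were changed. Folds below 1.5, such as those of AMOTL1, CCN2, LATS1 and YAP1, were not simulated. These rates therefore do not carry over to the calls above. The exact permutation test used scipy 1.17.1.

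The 10 genes and the lists were chosen with earlier results of these data known. Named genes are the 10, TRIM25, and from each list up to 3 called rises and 3 falls, largest first, whose groups do not overlap; for likeness the 3 genes with the highest Pearson's r to CCN2 and to YAP1. SRF, TEAD3, TEAD4, CCN3, ANKRD23 and the marker genes fall outside it and were named after their values were seen. Values of some list genes are not reported here; they are part of the counts only.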

Additional observations from a re-analysis of the deposited data

How the results depend on the processing

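Of the 10 genes 5 were called with all libraries, and between 3 and 6 when 1 library was left out: 3 without control replicate 2, which lost YAP1 and LATS1, and 6 without labelled knockdown replicate 1, which added TEAD1. The count over all tested genes was 3330, and 1826 to 4941 with 1 library left out. It was 1826, 1877 and 1868 without control replicate 2, control replicate 3 and labelled knockdown replicate 2. Over the 6 other lists 22 genes were called, 35 with length and GC offsets (which raised the count over all tested genes to 4550) and 12 to 31 with 1 library left out (13 without control replicate 2, 12 without control replicate 3 and 12 without labelled knockdown replicate 2). The LATS2 log2 fold change turned to -0.028 without labelled knockdown replicate 3 and reached 0.11 without labelled knockdown replicate 2. Among 25 named genes and 14 alternatives, 322 of 350 values kept direction and side of the threshold, and the cause of the other 28 was not tested.

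No pairing of the libraries by replicate number was seen. Deviations from the group means correlated at -0.19, 0.0082 and -0.22 for numbers 1, 2 and 3, and 0 libraries correlated best with their own number. These deviations still held the length trends, which had opposite signs in control and labelled knockdown for number 1 (rho 0.41 and -0.38) and number 3 (-0.36 and 0.38). The check therefore cannot decide whether the numbers pair the libraries. A fit with the replicate block called 1891 genes, 4 of the 10 (LATS1 lost, adjusted p = 0.0529) and 13 in the lists.

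Depth limits ANKRD1, whose counts of 0 to 3 allow no comparison.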
